A study of Mus musculus with 16 samples.

Results

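T cell receptor (TCR) beta chains were sorted by the length of CDR3, the loop at the join of the V, D and J segments. Length was counted in amino acid letters as the deposited annotation gives them, with the first cysteine and the last phenylalanine included. Chains of 11 or fewer letters formed the short class, chains of 12 to 15 the middle class and chains of 16 or more the long class. Cells with exactly 1 beta chain (TRB) and 1 or 2 alpha chains (TRA) were used, 38108 of 74368 cells. No doublet caller was run. Cells with more than 1 TRB were left out, while a second TRA was found in 7.39% of short, 7.04% of middle and 6.81% of long clonotypes, and doublets among these were not removed. A clonotype was a TRB with its main TRA, counted once per library whatever its number of cells. Of 30489 clonotypes in 8 libraries, 1516 were short, 2570 long and 26403 middle. Lengths ran from 6 to 22 letters. The counts beside the boundaries were 1248 clonotypes of 11 letters and 3624 of 12, and 6009 of 15 letters and 2003 of 16.

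The T cells came from mouse spleen and were CD4+ and CD44high, a phenotype of cells that have met antigen. Per the labels' protocols, Vk12653 multiple myeloma cells were given intravenously at day 0 to all mice. All mice also had anti-NK1.1 depleting antibody (50 µg) at days -2 and 5. Treatment was 20 µg of agonist antibody to 4-1BB (CD137), a receptor that costimulates T cells, or of control IgG at days 10, 13 and 16, and the end point was day 18. Eomes encodes a T-box transcription factor of lymphocytes. Wild-type (WT) mice carried Eomes-IRES-GFP, and knockout (KO) mice were Eomesfl/fl-CD4Cre in experiment 1 and Eomesfl/fl-ERT2CD4Cre in experiment 2. In experiment 2 all mice, WT included, also received tamoxifen. The type of knockout, tamoxifen and the experiment therefore cannot be told apart. Genotype and treatment gave 4 groups of 2 libraries, 1 from each experiment. The labels do not say how many mice gave a library, so the p-values measure the spread between these libraries, which may be technical.

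CDR3 beta is assembled in the thymus when a D segment is joined to a J segment and then a V segment to both. Exonucleases trim the segment ends, and terminal deoxynucleotidyl transferase adds bases that no segment encodes, so the length of the loop depends on the segments used, the trimming and the added bases. The loop lies over the middle of the peptide when the receptor binds a peptide on an MHC molecule. Chains with few added bases are made more often and are known to recur between individuals.

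The chains found in most libraries show how the classes are built. For each class the 4 TRB chains present in most libraries are given as nucleotides, 5′ to 3′, with the bases that matched neither the V end nor the J end in capitals. The V and J ends were the majority sequences of these contigs, with J limited by the RefSeq segment length on GRCm38.p6. A run of capitals holds D bases and added bases without separating them.
Short, TRBV13-1 with TRBJ2-5: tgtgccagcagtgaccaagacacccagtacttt
Short, joined TRBV12-2+TRBV13-2 label with TRBJ2-7, 8 letters: tgtgccagcggtgaacagtacttc
Short, joined TRBV12-2+TRBV13-2 label with TRBJ2-7, 10 letters: tgtgccagcggtgactatgaacagtacttc
Short, TRBV3 with TRBJ2-5: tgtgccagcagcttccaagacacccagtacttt
Middle, TRBV20 with TRBJ2-7: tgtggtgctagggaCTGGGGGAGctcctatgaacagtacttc
Middle, TRBV10 with TRBJ1-4: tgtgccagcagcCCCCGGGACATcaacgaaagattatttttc
Middle, TRBV5 with TRBJ1-4: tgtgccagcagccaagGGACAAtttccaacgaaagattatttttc
Middle, TRBV26 with TRBJ2-7: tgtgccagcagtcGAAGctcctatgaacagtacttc
Long, TRBV16 with TRBJ2-4: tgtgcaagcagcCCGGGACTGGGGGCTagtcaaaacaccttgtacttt
Long, TRBV5 with TRBJ1-4: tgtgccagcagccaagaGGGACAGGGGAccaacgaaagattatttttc
Long, TRBV5 with TRBJ2-3: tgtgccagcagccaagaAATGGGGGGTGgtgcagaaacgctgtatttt
Long, TRBV5 with TRBJ2-5: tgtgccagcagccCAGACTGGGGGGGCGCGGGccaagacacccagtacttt
These are the only 4 short chains in 3 libraries and the only 4 long chains in more than 1. All 4 short chains had 0 bases between V and J and so could be read from V and J ends alone. The first was held by 4 clonotypes with 4 different alpha chains and the others by 3 clonotypes with 3 alpha chains each. The 4 long chains carried 11 to 19 such bases, each in 2 libraries. Among them, 3 paired with the same alpha chain in both libraries, and TRBV5 with TRBJ1-4 had 2 different alpha chains. Each of those 3 was found in 2 libraries of the same experiment. They were TRBV16 with TRBJ2-4 in experiment 2, and TRBV5 with TRBJ2-3 and with TRBJ2-5 in experiment 1. Only TRBV5 with TRBJ1-4 was found in both experiments. Whether the same-alpha receptors arose separately in the 2 libraries was not tested. The middle chain of TRBV20 was present in all 8 libraries, in 14 clonotypes with 14 alpha chains. The joined label is given as the annotation writes it and was kept as a segment of its own. Its majority V end of 17 bases was the same as that of TRBV13-2 and differed from that of TRBV12-2. Where V segments are summed by family below, it is counted with Vβ8.

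The extremes show the same build. The shortest short chain held by at least 2 clonotypes was the 24-base chain above. The longest long one had 54 bases and 4 clonotypes, all in 1 library (WT IgG of experiment 1). These 4 held 17 cells in all, of which the largest clonotype had 14. With the TRB and TRA rule such a group may be counted more than once. The single shortest and longest chains were of 18 and 66 bases, each held by 1 cell.
Longest in several clonotypes, TRBV5 with TRBJ2-2: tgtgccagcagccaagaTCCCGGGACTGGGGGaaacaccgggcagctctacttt
Shortest of all, TRBV19 with TRBJ1-3: tgtgccacgctctatttt
Longest of all, TRBV5 with TRBJ2-2: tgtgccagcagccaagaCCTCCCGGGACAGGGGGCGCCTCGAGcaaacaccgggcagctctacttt
In the shortest chain V and J met directly, with 7 bases of TRBV19 and 11 of TRBJ1-3. In the longest, 26 bases lay between the V and J ends.

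The length difference was split over the junction as a description, because the sum is fixed by the class rule. CDR3 of short clonotypes was on average 8.80 bases shorter than that of middle clonotypes, and bases between V and J made up 55.6% of it, J bases 36.6% and V bases 7.71%. Long clonotypes were 7.76 bases longer, of which 63.3% lay between V and J, 22.6% in J and 14.1% in V. Means over the 8 libraries were 4.55 bases between V and J in short, 9.44 in middle and 14.4 in long clonotypes. Short chains thus differed from middle ones more by lost J bases than long chains did by gained ones. A junction of 2 or fewer bases was found in 28.5% of short, 1.85% of middle and 0% of long clonotypes, pooled over libraries.

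The share of the short class differed little between conditions. The short class made up 4.47% of clonotypes in WT IgG, 5.08% in WT anti-4-1BB, 4.42% in KO IgG and 5.43% in KO anti-4-1BB of experiment 1. In experiment 2 the same groups had 4.98%, 5.09%, 4.99% and 5.17%. All 4 anti-4-1BB libraries lay above the 4 IgG libraries, which ranged up to 4.99%, and the exact 95% Clopper-Pearson intervals, which cover counting error only, overlapped between all 8. The mean difference, anti-4-1BB minus IgG, was 0.478 percentage points ± 0.419 (SD, n = 4 pairs), with 0.811 in experiment 1 and 0.146 in experiment 2. A two-sided exact permutation test inside experiment and genotype gave p = 0.125, the smallest value its 16 arrangements allow, and p = 0.562 after Benjamini-Hochberg adjustment over 6 tests. Without the block of experiment and genotype, with labels exchanged over all 8 libraries in 70 arrangements, the exact p was 0.0286.

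The anti-4-1BB libraries of experiment 1 also stood apart in V use. TRBV12-1 and TRBV12-2, which encode the chains known as Vβ5, made up 12.2% of short clonotypes in WT and 18.5% in KO anti-4-1BB of experiment 1, against 0.980% to 3.30% in the other 6 libraries. In the middle class they held 9.12% and 13.1% of clonotypes there and at most 3.43% elsewhere. Without these V segments the difference in the short share was 0.345 percentage points, again with an exact permutation p of 0.125, an alternative chosen after seeing the data.

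**Figure D1:**
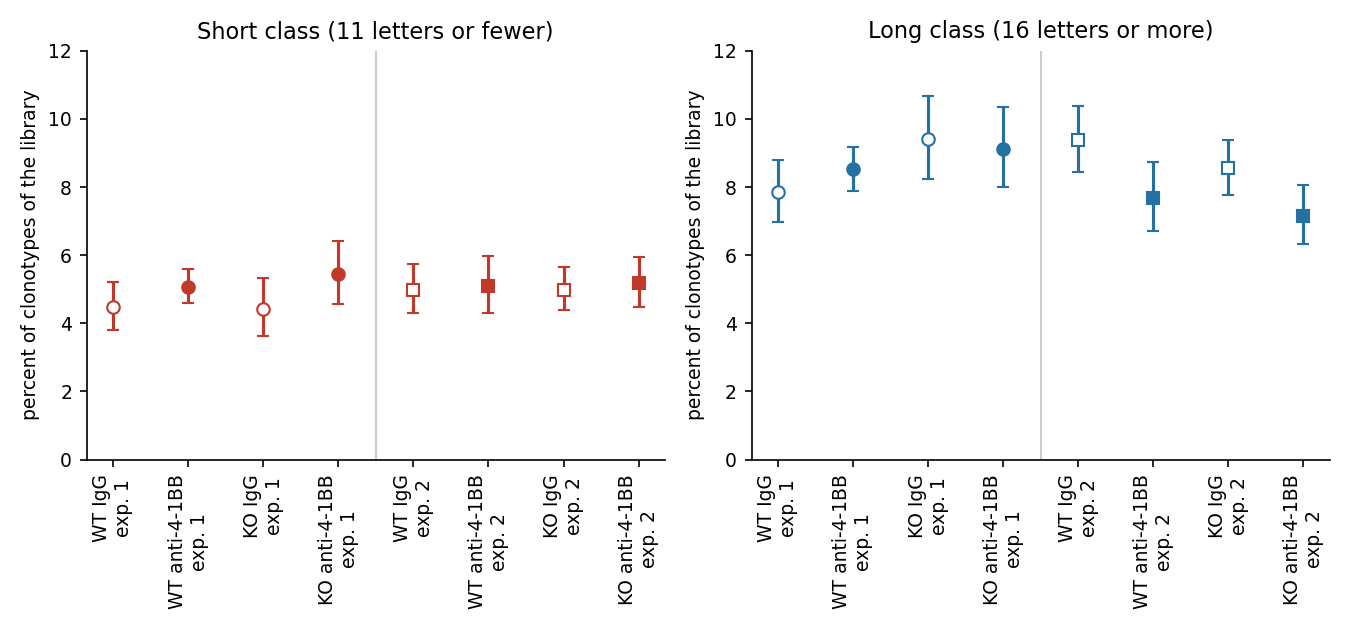
Percent of clonotypes in the short class (left) and the long class (right) in each of the 8 libraries, with exact 95% intervals. Open symbols are IgG, filled symbols anti-4-1BB, circles experiment 1 and squares experiment 2. Short shares lie between 4.42% and 5.43%, and long shares between 7.15% and 9.41%.

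The long share was 7.85%, 8.52%, 9.41% and 9.11% of clonotypes in experiment 1 and 9.38%, 7.68%, 8.55% and 7.15% in experiment 2, in the order of groups used for the short share. The lowest 2 values were those of anti-4-1BB in experiment 2, and the groups overlapped. Anti-4-1BB minus IgG was -0.68 percentage points ± 1.08 (SD, n = 4 pairs, exact permutation p = 0.375), with 0.185 in experiment 1 and -1.55 in experiment 2. KO minus WT was 0.196 points ± 1.09 (exact permutation p = 0.75), with 1.07 in experiment 1 and -0.683 in experiment 2. For the short share KO minus WT was 0.102 points ± 0.180 (exact permutation p = 0.375). Experiment 2 minus experiment 1 was 0.205 points ± 0.401 for the short share (exact permutation p = 0.375) and -0.533 ± 1.47 for the long share (exact permutation p = 0.5). None of these differences exceeded the spread between libraries, and adjusted p over the 6 tests ran from 0.562 to 0.75.

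J segments differed between the classes. They give the last part of CDR3, and their ends differ in length. On GRCm38.p6 TRBJ1-1 lies at chr6:41533864-41533911, TRBJ2-2 at chr6:41542957-41543007 and TRBJ2-7 at chr6:41543810-41543856. Before framework 4, the part of J that follows CDR3, they hold 20, 23 and 19 bases.
TRBJ2-7: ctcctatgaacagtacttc
TRBJ1-1: caaacacagaagtcttcttt
TRBJ2-2: caaacaccgggcagctctacttt
TRBJ2-7, the shortest of the 12 J segments tested, made up 27.3% to 35.3% of short clonotypes (median of the 8 libraries 33.7%), 17.8% to 19.9% of middle ones (18.8%) and 2.76% to 7.11% of long ones (5.49%). The 3 ranges did not overlap. TRBJ1-1 showed the same order, with 14.0% to 23.6% (median 18.1%), 7.47% to 10.4% (9.22%) and 1.12% to 3.25% (2.14%). TRBJ2-2 ran the other way, with 0.546% to 2.94% of short (median 1.59%), 5.63% to 6.94% of middle (6.11%) and 11.1% to 19.0% of long clonotypes (14.6%).

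Of 122 V, D and J segments of both chains tested in edgeR with the library as a term, 19 (15.6%) differed between short and middle at an adjusted p under 0.05, and 28 (23%) between long and middle. The short count was 11 without WT anti-4-1BB of experiment 1, the library with most clonotypes. Bases of the beta V, D and J segments are part of the length that formed the classes. Differences of these segments are thus partly set by the class rule, and their p-values describe the classes only. J segments took part with 10 of 12 in the short class, 2 higher and 8 lower, and 9 of 12 in the long class, 4 higher and 5 lower. Log2 differences of the 12 ran from -1.92 to 1.03 in short and from -2.04 to 1.26 in long, with medians of -0.57 and 0.08, against -0.00417 and -0.00338 over all 122 segments. In short clonotypes TRBJ1-1 was higher by a log2 difference of 1.03 ± 0.11 (SE; edgeR adjusted p = 4.00e-15) and TRBJ2-7 by 0.82 ± 0.09 (adjusted p = 6.00e-15), each in 8 of 8 libraries. The lowest were TRBJ1-6 (-1.92 ± 0.40), TRBJ2-2 (-1.67 ± 0.23) and TRBJ1-3 (-1.64 ± 0.25), each lower in 8 of 8 libraries. These 3 segments hold 25, 23 and 22 bases before framework 4.

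In long clonotypes TRBJ2-2 rose by 1.26 ± 0.10 on the log2 scale (edgeR adjusted p = 1.18e-22), TRBJ2-3 by 1.02 ± 0.09 and TRBJ2-4 by 0.55 ± 0.10, each in 8 of 8 libraries. TRBJ1-1 (-2.04 ± 0.16), TRBJ1-2 (-1.74 ± 0.19) and TRBJ2-7 (-1.74 ± 0.12) were lowest, each below middle in 8 of 8 libraries. TRBJ1-2, with 20 bases as TRBJ1-1, was lower in short clonotypes too (-0.59 ± 0.19, edgeR adjusted p = 0.0187). That call was lost without WT IgG of experiment 2 (adjusted p = 0.0714), or WT (0.106) or KO anti-4-1BB (0.0594) of experiment 1, and with TMM factors (-0.13, adjusted p = 0.782). By cluster, the TRBJ2 segments together made up 74.5% to 82.8% of long clonotypes and 66.2% to 70.6% of middle ones, higher in 8 of 8 libraries, with 4 members higher and 2 lower. In short clonotypes they made up 65.4% to 74.8%, above middle in 7 of 8 libraries, with 1 member higher and 4 lower. TRBJ2-1 was lower in short (-0.51 ± 0.15, edgeR adjusted p = 0.00934) and higher in long clonotypes (0.46 ± 0.10, adjusted p = 8.75e-05). Its call in short was lost without WT IgG (adjusted p = 0.0614), WT anti-4-1BB (0.106) or KO anti-4-1BB (0.0665) of experiment 1. It was also lost with TMM factors (-0.038, edgeR adjusted p = 0.958), with DESeq2 (-0.091, adjusted p = 0.810) and with cells counted (-0.40, edgeR adjusted p = 0.180). TRBJ1-5 (-0.61 ± 0.23, edgeR adjusted p = 0.0399) and TRBJ2-5 (-0.30 ± 0.10, adjusted p = 0.0144) completed the 5 lower in long clonotypes. The call of TRBJ1-5 was lost with any of 6 libraries left out (all but the KO anti-4-1BB ones, adjusted p from 0.0608 to 0.127) and that of TRBJ2-5 without KO IgG of experiment 2 (0.0793) or KO anti-4-1BB of experiment 1 (0.0596) or 2 (0.0748). The TRBJ1 cluster had 3 of 6 members lower and 0 higher in long clonotypes.

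Across the 12 J segments the bases before framework 4 and the log2 difference had Pearson's r of -0.84 in short (Spearman's rho -0.84) and 0.66 in long (0.56). Across the 21 V segments tested, with the length of the V end in its place, r was -0.55 in short (rho -0.59) and 0.62 in long (0.74). These are descriptions over segments that share libraries and a common total, and segment length enters the class rule. With TMM factors the J differences of the short class moved up by a median of 0.47, which put 3 J segments higher and 3 lower, and with DESeq2 by 0.42, again 3 and 3. TRBJ2-4 (-0.44 ± 0.14 in short, lost without WT IgG or WT anti-4-1BB of experiment 1 or KO IgG of experiment 2, with adjusted p of 0.0811, 0.106 and 0.0643 in edgeR) changed sign there, to 0.044 with TMM factors and 0.000205 with DESeq2.

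**Figure D2:**
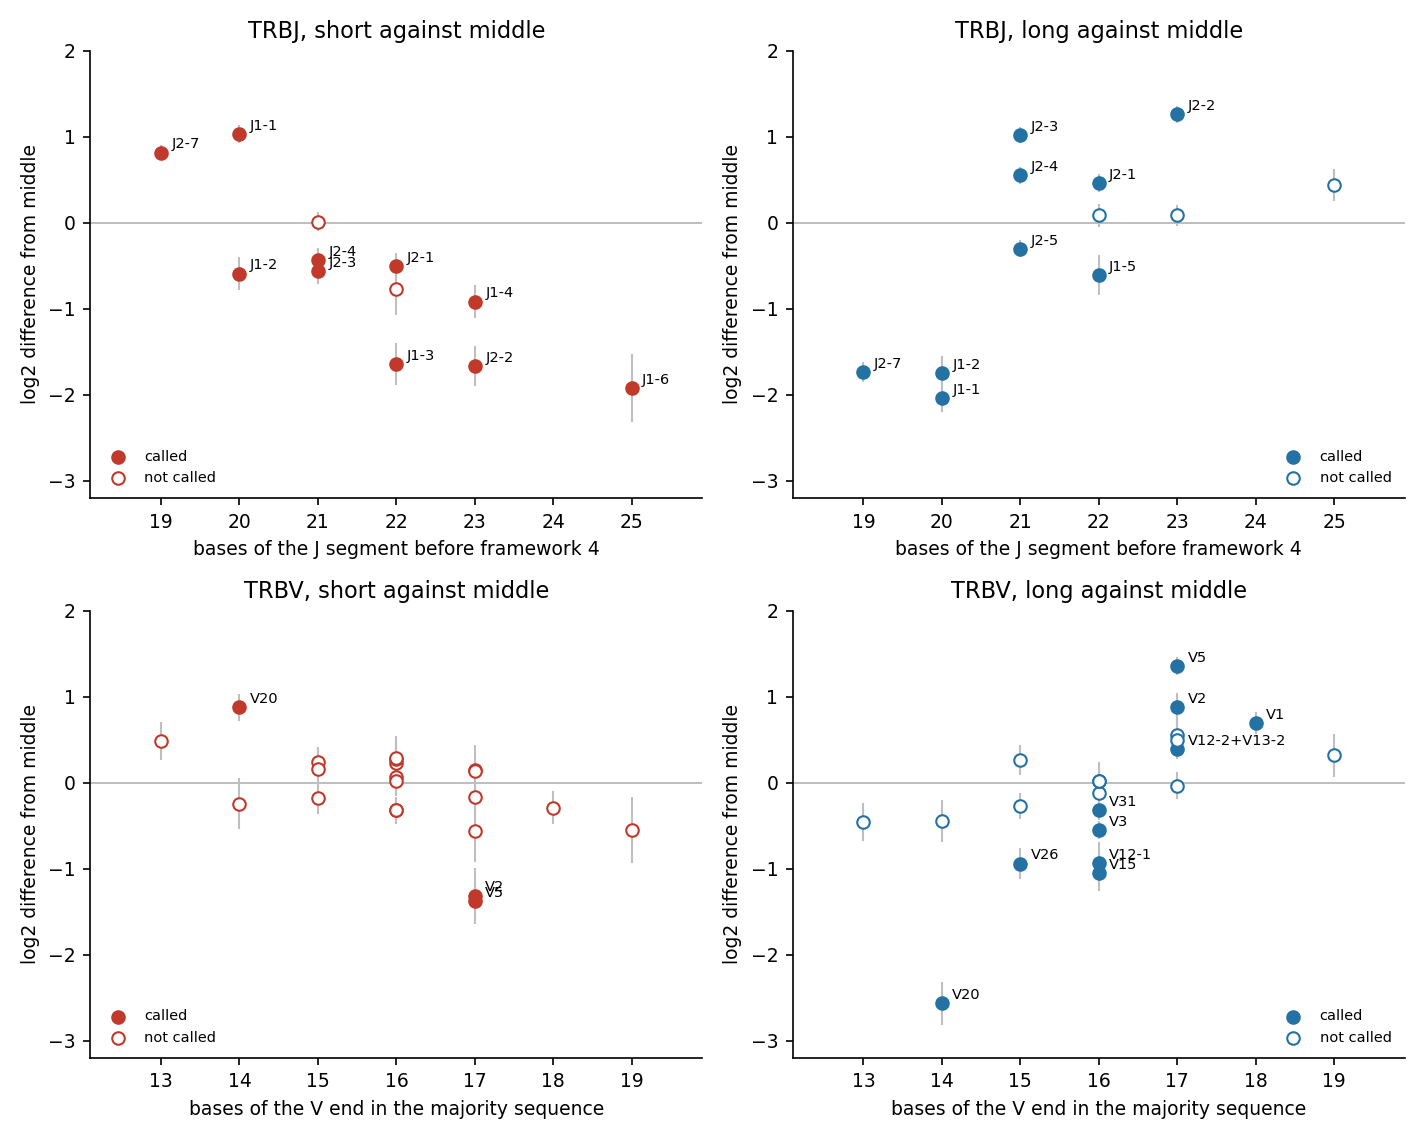
Log2 difference of segment use from the middle class (y axis, bars are SE) against the bases the segment can give to CDR3 (x axis), for J segments (top) and V segments (bottom) in short (left) and long (right) clonotypes. Filled points passed an edgeR adjusted p of 0.05 and are named without the prefix TRB. In short clonotypes the J segments fall from 0.82 for TRBJ2-7 at 19 bases to -1.92 for TRBJ1-6 at 25 bases.

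V segments give the start of CDR3 and the other loops of the beta chain. TRBV5 and TRBV20 moved in opposite directions. TRBV5 lies at chr6:41062359-41062803 and TRBV20 at chr6:41188273-41188977 on GRCm38.p6, and their majority ends in these contigs had 17 and 14 bases.
TRBV5: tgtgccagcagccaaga
TRBV20: tgtggtgctaggga
TRBV20 made up 4.90% to 13.2% of short clonotypes (median 8.79%), 4.29% to 5.96% of middle ones (4.54%) and 0% to 1.49% of long ones (0.925%). TRBV5 held 0% to 3.28% of short (median 1.48%), 3.38% to 5.83% of middle (4.84%) and 8.80% to 15.4% of long clonotypes (11.9%). The 3 ranges of TRBV5 did not overlap, while those of TRBV20 overlapped between short and middle.

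In short clonotypes 3 of 21 V segments passed the test. TRBV20 rose by 0.87 ± 0.16 on the log2 scale (edgeR adjusted p = 4.80e-05, 8 of 8 libraries). TRBV5 (-1.38 ± 0.23, adjusted p = 2.04e-05) and TRBV2 (-1.31 ± 0.33, adjusted p = 0.00325) were lower in 8 of 8 libraries. TRBV2 has the same majority end as TRBV5. With cells counted in place of clonotypes TRBV20 had 0.65 (edgeR adjusted p = 0.0535). The call of TRBV2 was lost without WT anti-4-1BB of experiment 1 (-1.04, edgeR adjusted p = 0.0757).

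In long clonotypes 10 of 21 V segments passed, 4 higher and 6 lower. TRBV5 (1.36 ± 0.11, edgeR adjusted p = 3.35e-13), TRBV2 (0.88 ± 0.17), TRBV1 (0.69 ± 0.13) and the joined TRBV12-2+TRBV13-2 label (0.39 ± 0.08) were higher, the first 3 in 8 of 8 libraries and the last in 7 of 8. TRBV20 had the largest difference (-2.56 ± 0.25, adjusted p = 9.96e-11), followed by TRBV15 (-1.05 ± 0.21), TRBV26 (-0.94 ± 0.18) and TRBV12-1 (-0.94 ± 0.25). The first 3 were lower in 8 of 8 libraries and TRBV12-1 in 7. With cells counted the calls of TRBV1 (0.45, edgeR adjusted p = 0.247), TRBV26 (-0.71, 0.0932) and TRBV12-1 (-0.80, 0.168) were lost. Of the Vβ8 family (TRBV13-1, TRBV13-2, TRBV13-3 and the joined label), 1 of 4 was called higher in long and 0 of 4 in short clonotypes. Together they held 29.2% to 32.7% of long clonotypes and 23.3% to 29.8% of middle ones.

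D segments could be compared only where the annotation named one, in 4.62% of short, 20.4% of middle and 42.8% of long clonotypes, pooled. A D label needs enough bases left to match, and that share follows the bases between V and J given above. Among labelled long clonotypes TRBD2 made up 47.1% to 65.2% (median 55.1%) against 28.3% to 36.5% (31.0%) in middle ones, higher in 8 of 8 libraries. The log2 difference was 0.81 ± 0.08 (edgeR adjusted p = 2.12e-09), and that of TRBD1 -0.61 ± 0.08. TRBD1 lies upstream of both J clusters and can join either, whereas TRBD2 lies between them and joins only TRBJ2 in direct rearrangement. Short clonotypes had 61 TRBD1 and 9 TRBD2 labels in all. TRBD2 was called lower there (-1.28 ± 0.38, adjusted p = 0.0187), a call lost without WT IgG of experiment 2 (-1.12, edgeR adjusted p = 0.0739) or WT anti-4-1BB of experiment 1 (-1.18, adjusted p = 0.106).

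The alpha chain is rearranged later and independently of the beta chain, and was not used to form the classes. Short beta chains paired more often with TRAV4-3, TRAV4-4-DV10 and TRAV13-4-DV7. TRAV4-4-DV10 made up 2.61% to 9.79% of short clonotypes (median 6.48%) and 2.93% to 5.38% of middle ones (3.87%). TRAV4-3 made up 1.09% to 5.19% (median 3.92%) against 1.42% to 1.98% (1.83%), and TRAV13-4-DV7 0.549% to 3.5% (2.03%) against 0.8% to 1.45% (1.06%). The ranges overlapped for all 3, and each was higher in short clonotypes in 7 of 8 libraries. Log2 differences were 0.79 ± 0.17 for TRAV4-4-DV10 (edgeR adjusted p = 7.49e-05), 1.17 ± 0.23 for TRAV4-3 (adjusted p = 9.64e-06) and 1.13 ± 0.32 for TRAV13-4-DV7 (adjusted p = 0.00506). Without WT anti-4-1BB of experiment 1, TRAV13-4-DV7 had 0.93 and an edgeR adjusted p of 0.106. With short taken as 10 or fewer letters none of the 3 passed (TRAV4-3 1.07, edgeR adjusted p = 0.341; TRAV4-4-DV10 0.55, adjusted p = 0.633; TRAV13-4-DV7 -0.56, adjusted p = 0.847), with far fewer clonotypes.

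These pairings were spread over many receptors. The 59 short clonotypes with TRAV4-3 held 59 different beta chains, 57 alpha chains and 19 TRBV labels, and the 98 with TRAV4-4-DV10 held 97 beta and 97 alpha chains. In the same class TRAV10 was lower (-0.83 ± 0.30, edgeR adjusted p = 0.0374) and TRAJ58 higher (0.83 ± 0.30, adjusted p = 0.0374). Both calls depend on single libraries. TRAV10 was lost without WT IgG (edgeR adjusted p = 0.0714), KO IgG (0.170) or WT anti-4-1BB (0.0504) of experiment 2, or WT anti-4-1BB of experiment 1 (0.177). TRAJ58 was lost without WT IgG (0.128) or KO IgG (0.0871) of experiment 2, or KO IgG (0.139), WT anti-4-1BB (0.0997) or KO anti-4-1BB (0.109) of experiment 1. In all, 4 of 48 TRAV and 1 of 39 TRAJ segments passed in short clonotypes.

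Long beta chains paired more often with TRAV16N and TRAV11. TRAV16N made up 1.58% to 4.13% of long clonotypes (median 2.68%), 0.926% to 1.66% of middle ones (1.26%) and 0% to 1.10% of short ones (0.676%). It was higher in long than in middle clonotypes in 8 of 8 libraries and lower in short ones in 7 of 8. The log2 difference of long from middle was 1.10 ± 0.23 (edgeR adjusted p = 1.92e-05), and the 69 clonotypes held 68 beta and 64 alpha chains. TRAV3N-3 rose by 0.59 ± 0.17 (edgeR adjusted p = 0.00439, 7 of 8 libraries), a call lost with cells counted (0.55, adjusted p = 0.213).

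Lower in long clonotypes were TRAV7D-2 (-0.65 ± 0.16, edgeR adjusted p = 0.000448), TRAV14-2 (-0.62 ± 0.24, adjusted p = 0.0399) and TRAV10 (-0.56 ± 0.22, adjusted p = 0.0456), the first 2 in 8 of 8 libraries and TRAV10 in 5. TRAJ23 was higher (0.33 ± 0.12, adjusted p = 0.0399) in 6 of 8. In total 6 of 48 TRAV and 1 of 39 TRAJ segments passed. The calls of TRAV14-2, TRAV10 and TRAJ23 depend on single libraries. Without WT IgG of experiment 1 the edgeR adjusted p was 0.0707, 0.132 and 0.0689, in that order, and without KO IgG of experiment 2 it was 0.0793, 0.149 and 0.149. TRAV14-2 was also lost without WT anti-4-1BB of experiment 2 (0.0765) or KO anti-4-1BB of experiment 1 (0.0693) or 2 (0.0850). TRAV10 was also lost without WT anti-4-1BB of experiment 1 (0.151) or 2 (0.0907) or KO anti-4-1BB of experiment 1 (0.0665), and TRAJ23 without WT IgG (0.127) or KO anti-4-1BB (0.0778) of experiment 2.

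TRAV11 joined to TRAJ18 is the alpha chain of invariant natural killer T (NKT) cells, which bind lipids on CD1d and pair it with a small set of beta V segments, Vβ8 among them. NK1.1 is found on many of these cells in some mouse strains, and all mice here received the antibody against it. TRAV11 made up 0.310% to 5.15% of long clonotypes (median 1.71%) and 0.259% to 1.91% of middle ones (0.514%), with a log2 difference of 1.45 ± 0.26 (edgeR adjusted p = 6.41e-07, 7 of 8 libraries). Of its 56 long clonotypes 52 were joined to TRAJ18 and 32 carried the joined TRBV12-2+TRBV13-2 label. With long taken as 17 or more letters TRAV11 had 0.99 (edgeR adjusted p = 0.258). The 56 held 56 different beta chains and 14 alpha chains. The invariant NKT chain was found in 2.02% of long, 0.606% of middle and 0.660% of short clonotypes, pooled. WT IgG and KO IgG of experiment 2 were highest, with 4.37% and 5.15% of long clonotypes. In short clonotypes TRAV11 (0.15 ± 0.45, edgeR adjusted p = 0.887) and TRAJ18 (0.37 ± 0.24, adjusted p = 0.354) did not pass, nor did TRAJ18 in long ones (0.41 ± 0.19, adjusted p = 0.102, and 0.0470 without WT anti-4-1BB of experiment 1). The chain that marks mucosal-associated invariant T cells, TRAV1 with TRAJ33, was found in 4 middle clonotypes and in 0 short and 0 long ones.

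**Figure D3:**
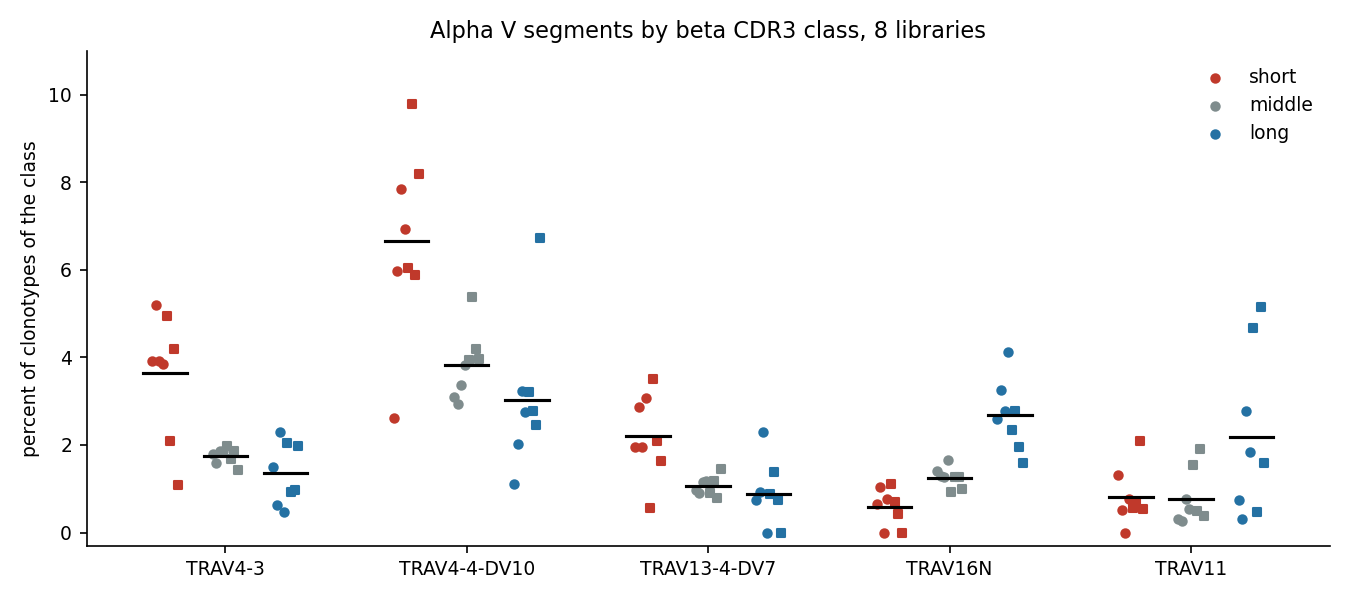
Percent of clonotypes of a class that carry each of 5 alpha V segments, 1 point per library (circles experiment 1, squares experiment 2), with the mean of the 8 libraries as a black line. The means of the TRAV4 segments and TRAV13-4-DV7 are highest in the short class and those of TRAV16N and TRAV11 in the long class. Points of the classes overlap, and in the long class those of TRAV11 spread from 0.310% to 5.15%.

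Alpha CDR3 was slightly longer beside short beta chains. Its mean length over short clonotypes ran from 13.4 to 13.6 letters across the 8 libraries, and over middle ones from 13.3 to 13.5. The difference inside a library was 0.127 letters ± 0.101 (SD, n = 8), positive in 8 of 8 libraries and between 0.0177 and 0.307. A two-sided exact test over all sign patterns gave p = 0.00781, the smallest it allows, and 0.0156 after Benjamini-Hochberg adjustment over 6 class tests. Single clonotypes of all libraries had an SD of 1.22 letters in the short and 1.30 in the middle class. With short taken as 10 or fewer letters the difference was 0.0276 letters (exact p = 0.758), and counted by cells it was 0.106 (exact p = 0.148). Beside long beta chains the difference from middle was -0.0118 letters ± 0.103 (exact p = 0.781).

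The amino acids at the centre of the loop were compared after leaving out 4 letters at each end. The centre of a short chain then holds at most 3 letters and lies closer to the V and J ends than that of a longer chain. In edgeR 13 of 19 amino acids tested (68.4%) differed between short and middle, and 11 of 19 (57.9%) between long and middle. The letters belong to the same CDR3 whose length formed the classes, and length sets which positions fall in the centre. These differences are thus partly set by the class rule, and their p-values describe the classes only. Glycine, which D segments encode in several reading frames, made up 12% to 15.8% of centre letters in short, 22.0% to 22.6% in middle and 25.2% to 27.2% in long clonotypes, with ranges that did not overlap. Its log2 difference was -0.61 ± 0.04 in short and 0.26 ± 0.01 in long. Tryptophan moved the same way (-1.15 ± 0.22 and 0.39 ± 0.07), as did alanine (-0.29 ± 0.08 and 0.31 ± 0.03).

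Charged letters were more frequent in short centres. Aspartate made up 12.3% to 19.2% of them against 8.42% to 9.93% in middle clonotypes, higher in 8 of 8 libraries (0.77 ± 0.05, edgeR adjusted p = 2.18e-33). In the majority V ends of TRBV13-1, TRBV13-3 and the joined label, the first letter kept is aspartate (gat). Such a V letter weighs more in a centre of at most 3 letters than in a longer one. How much of the aspartate came from V ends was not tested. Lysine (1.26 ± 0.23), histidine (0.72 ± 0.26) and phenylalanine (0.65 ± 0.21) completed the 4 highest, and serine (-0.43 ± 0.08) and asparagine (-0.46 ± 0.08) stood beside tryptophan and glycine among the lowest. By group, 2 of 2 acidic and 3 of 3 basic amino acids rose in short clonotypes, 2 of 3 aromatic ones rose while tryptophan fell, and 3 of 3 small ones fell. Among the basic ones arginine (0.20 ± 0.09, edgeR adjusted p = 0.0371) was lost without WT IgG (adjusted p = 0.0631) or WT anti-4-1BB (0.229) of experiment 1, or KO IgG (0.0920) or KO anti-4-1BB (0.0582) of experiment 2. It was also lost with cells counted (0.169), TMM factors (0.428) and DESeq2 (0.196). In long clonotypes tryptophan, alanine, glycine and proline (0.16 ± 0.06) were the 4 higher, and tyrosine (-0.47 ± 0.06), phenylalanine (-0.38 ± 0.13), aspartate (-0.27 ± 0.03) and threonine (-0.22 ± 0.04) the lowest of 7. With TMM factors the split in long clonotypes became 6 higher and 3 lower, and with DESeq2 4 and 3. Histidine was lost without KO IgG of experiment 2 (0.59, edgeR adjusted p = 0.0629). Proline was lost without KO IgG (adjusted p = 0.0588) or WT anti-4-1BB (0.214) of experiment 1 or KO anti-4-1BB of experiment 2 (0.0572). With 3 letters left out at each end serine in short clonotypes changed sign, to 0.12, and histidine (0.41, edgeR adjusted p = 0.115) and phenylalanine (0.37, adjusted p = 0.102) did not pass.

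Identical beta chains were found in several libraries most often in the short class. A clonotype was counted as shared when its TRB, by V, J and CDR3 nucleotides, was present in at least 1 of the other 7 libraries. In experiment 1 the shared percent of short clonotypes was 4.58% in WT IgG, 2.86% in WT anti-4-1BB, 4.90% in KO IgG and 6.15% in KO anti-4-1BB, and in experiment 2 it was 5.49%, 6.29%, 5.46% and 8.74%. Middle clonotypes had 2.36%, 2.55%, 3.52% and 2.94%, and then 2.68%, 2.89%, 3.56% and 4.29%. Long clonotypes had 1.12%, 0.155%, 0.461% and 0%, and then 0%, 0%, 0.490% and 0.395%. The ranges of long and middle did not overlap, while those of short and middle did. A count of 0 there allows up to 1.38%, 0.875% and 1.39%, in that order (3 clonotypes of the class).

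Inside a library the short class was above the middle class by 2.46 percentage points ± 1.29 (SD, n = 8), in 8 of 8 libraries, and the long class was below it by a difference of -2.77 ± 0.75, in 8 of 8. Both gave an exact p of 0.00781 over the sign patterns, the smallest possible, and 0.0156 adjusted over 6 tests. A chain shared by 2 libraries counts in both, so the 8 differences are not fully independent. Of distinct beta chains, 34 of 1413 short (2.41%), 310 of 24709 middle (1.25%) and 4 of 2487 long (0.161%) were in at least 2 libraries. Of the 34 short ones 30 were in 2 libraries and 4 in 3, whereas 9 middle chains were in 4 or more.

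Sharing followed the number of bases between V and J. With 0 to 2 such bases 12.3% of 432 short and 15.0% of 488 middle clonotypes were shared. With 3 to 5 bases the values were 3.97% of 554 and 6.85% of 2935, and with 6 to 8 bases 1.23% of 326 and 4.00% of 7183. At equal junction size the short class was thus not the more shared one in any of these 3 bins, as a description pooled over libraries. Shared short clonotypes had a median of 1 base there and the others 4, and 41.8% of the shared ones had 0. Long clonotypes with 9 to 11 bases were shared in 0.849% of 471 cases, and middle ones in 1.94% of 8660.

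Sharing was also counted on whole receptors. When the TRB and its main TRA both had to recur, the means over libraries were 0.15% for short, 0.247% for middle and 0.25% for long clonotypes, and the differences from middle were -0.0969 (exact p = 0.406) and 0.00302 points (exact p = 0.977). In every library 3 clonotypes made at least 0.779% of the short and 0.464% of the long class. The means lie below that, so these tests cannot show whether the classes were equal. When V, J and CDR3 amino acids had to match in place of nucleotides, the means rose to 12.9%, 10.1% and 1.73%. Of 37225 cell barcodes 866 occurred in more than 1 library. They formed 900 pairs of cells, of which 0 had the same TRB. Without these cells the differences were 2.28 and -2.71 points, each with an exact p of 0.00781.

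**Figure D4:**
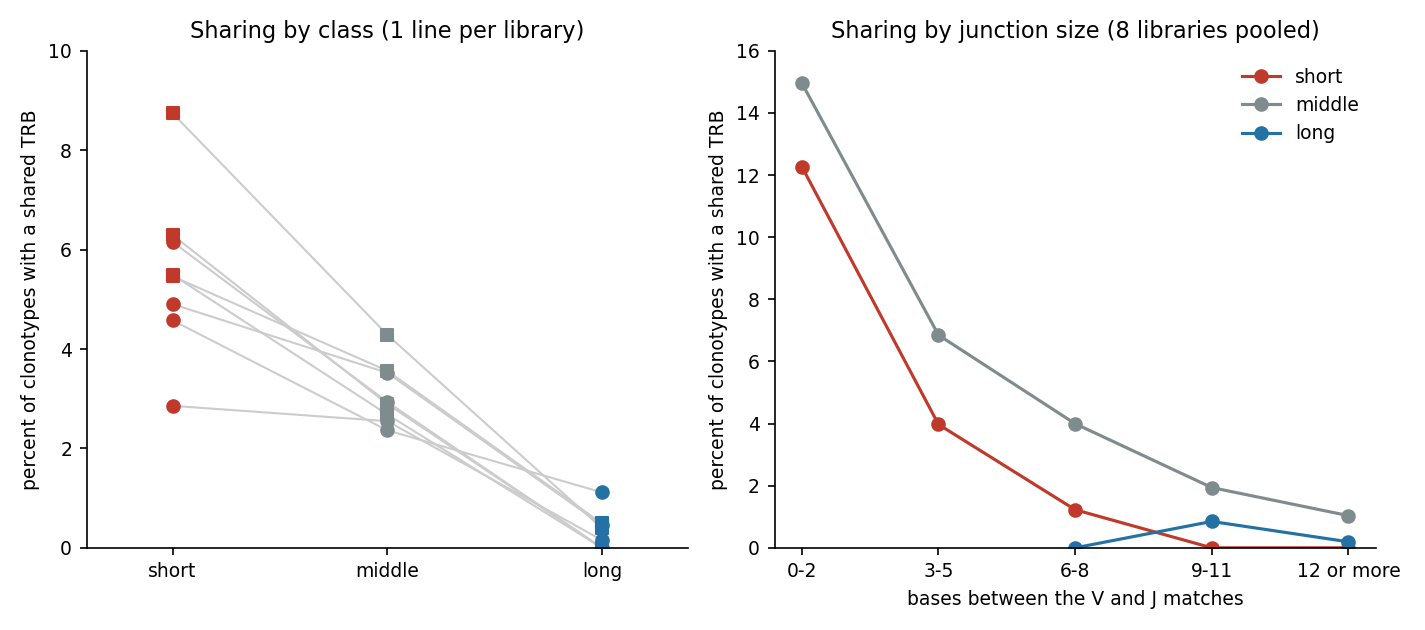
Left, percent of clonotypes of each class whose beta chain was found in another library, 1 grey line per library (circles experiment 1, squares experiment 2). Right, the same percent over all libraries by the number of bases between the V and J matches, for bins with at least 20 clonotypes. Every line falls from short over middle to long, and in the bins of 0 to 8 bases the short points lie below the middle ones.

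Clone size did not separate the classes. A clonotype of 2 or more cells was called expanded. Among short clonotypes 7.01% to 13.3% were expanded across the 8 libraries, among middle ones 7.63% to 15.5% and among long ones 4.13% to 19.0%. Pooled, the percents were 9.10%, 10.2% and 10.3%. Short minus middle was -0.807 points ± 1.73 (SD, n = 8; exact p = 0.234), and long minus middle -0.0567 ± 3.45 (exact p = 0.977). Library differences ran from -3.40 to 1.45 for short and from -6.68 to 3.53 for long.

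The largest short clone had 27 cells and the largest long clone 36, both in WT anti-4-1BB of experiment 2, and the largest middle clone had 71 cells in KO anti-4-1BB of experiment 2. Their beta chains show that a large clone occurred at 3 bases between V and J as well as at 22.
Short, 27 cells, TRBV10 with TRBJ2-7: tgtgccagcagcCAGtatgaacagtacttc
Long, 36 cells, joined TRBV12-2+TRBV13-2 label with TRBJ2-4: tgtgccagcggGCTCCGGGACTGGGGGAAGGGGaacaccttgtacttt
The long chain was also present in 4 other clonotypes of the same library with other alpha chains, 40 cells in all. Such groups may be counted more than once by the TRB and TRA rule, and counted by TRB alone the differences in expansion were -0.812 points for short and -0.992 for long.

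Within the short and the long class, V, D, J and alpha segment use was compared between conditions in edgeR, with the 4 groups as terms. Of 48 segments with at least 40 short clonotypes 0 (0%) passed between anti-4-1BB and IgG, and 0 (0%) between KO and WT. At an unadjusted p under 0.05 there were 2 in each comparison, and DESeq2 called 0 in each, with 1 at an unadjusted p under 0.05. Those 2 were, named after their values were seen, TRBV12-1 (3.22 ± 1.18) and TRAJ12 (0.89 ± 0.34) for anti-4-1BB, and TRAJ15 (-1.39 ± 0.43) and TRBV10 (0.86 ± 0.38) for KO. TRBV12-1 followed the libraries described above, with 9.09% and 13.8% of short clonotypes in WT and KO anti-4-1BB of experiment 1 and at most 1.65% in the others, so its difference rested on experiment 1. It reached the minimum of 40 clonotypes only through those 2 libraries, where it is high, and its values are a description. TRBV10 made up 18.0% of short clonotypes in KO anti-4-1BB of experiment 2 and 4.16% to 6.30% elsewhere. Without KO anti-4-1BB of experiment 1 TRBV10 passed for KO (1.15, edgeR adjusted p = 0.0131), and without WT IgG of experiment 2 TRAJ15 did (-1.73, adjusted p = 0.0157). D segments could not be fitted within the short class, with 9 TRBD2 labels in all.

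Of 81 segments with at least 40 long clonotypes 0 (0%) passed in either comparison in edgeR, against 6 and 3 at an unadjusted p under 0.05, and DESeq2 called 0 in each (1 and 0 unadjusted). TRAV11 had the smallest p for anti-4-1BB, with a log2 difference of -2.07 ± 0.65 (edgeR adjusted p = 0.151). It made up 0.743%, 2.76%, 4.66% and 5.15% of long clonotypes in the 4 IgG libraries and 0.310%, 1.83%, 0.463% and 1.58% in the 4 anti-4-1BB libraries (WT and KO of experiment 1, then of experiment 2). Each anti-4-1BB library was below the IgG library of its experiment and genotype. The same order held in the middle class, so it was not particular to long chains. There TRAV11 made up 0.300%, 0.755%, 1.53% and 1.91% in the IgG libraries. In the anti-4-1BB libraries it made up 0.259%, 0.538%, 0.489% and 0.387%, in the same order. TRAV11 reached the minimum of 40 clonotypes, with 56, mainly through the IgG libraries, where it is high. For KO against WT the value of TRAV11 was 1.35 ± 0.67 (edgeR adjusted p = 0.969), and the other 2 segments under an unadjusted p of 0.05 were TRAJ43 (-1.04 ± 0.40) and TRAJ40 (0.90 ± 0.40). TRAJ18 had -0.84 ± 0.34 for anti-4-1BB (edgeR adjusted p = 0.419) and 0.68 ± 0.35 for KO (adjusted p = 0.969). Without KO anti-4-1BB of experiment 1 the adjusted p of TRAV11 for anti-4-1BB was 0.0459 (-2.15). Leaving out a library changed no other call of the long class.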

How the data were processed

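Single-cell V(D)J libraries of 8 samples were used as annotated contigs, and the 8 gene expression samples were not analysed here. The deposited tables give UMI counts per contig, per the file headers, together with V, D, J and CDR3 calls. Cell Ranger 7.1.0, bcl2fastq 2.20.0, Seurat and GRCm38 are named in the submitters' processing notes, and the V(D)J reference is not given in the sources used here. UMIs per library ranged from 80551 to 445027 and clonotypes from 2307 to 7585. The median beta chain had 15 UMIs in the short class and 14 in the middle and the long class.

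The length classes, members and lists were chosen with earlier results of these data known. Segment counts per library and class were compared in edgeR 4.0.16 (quasi-likelihood test, R 4.3.3) by segment type, scaled to clonotypes, with the library as a term for classes and the 4 groups as terms for conditions. Segments with at least 200 clonotypes in the class comparison and 40 in the condition comparison were tested, and Benjamini-Hochberg adjustment at 0.05 ran over all of them. The SE is the log2 difference divided by the root of F. The spread was fully pooled for D, alpha V and amino acid counts. In the condition comparisons it was also fully pooled for beta J within the short class and alpha J within the long class. DESeq2 1.42.0 was an alternative. Of the fits, only short against middle was read on simulated counts, which held no differences between libraries. Changes were placed there in beta V, alpha V and alpha J segments only. The long, amino acid and condition comparisons were not tested in this way. Shares and means were compared with exact permutation tests in Python 3.11.15 (numpy 2.4.6, pandas 2.3.3, scipy 1.17.1), with figures from matplotlib 3.10.9.

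Segments were named by rule: all called ones of a comparison where at most 12 were called, otherwise the 4 highest and 4 lowest TRBV and the 3 highest and 3 lowest of other types, and always TRBJ segments by range and count, TRBD1, TRBD2, TRAV11 and TRAJ18. The labels mark libraries of 1 number as 1 experiment, so the numbers pair the samples. Deviations from group means in 2 libraries of 1 experiment had correlations of -0.281 to 0.274 in the short class and -0.417 to 0.306 in the long class, over 6 pairs and 120 segments. With 2 libraries per group the deviations of experiment 2 mirror those of experiment 1. Both experiments therefore give the same correlations, which count as 1 set of values. Intervals (95%, Clopper-Pearson) and limits for a count of 0 cover counting error only, since amplified contigs are not independent samples of cells. Alternatives covered class boundaries, UMI minimum, scaling, filters, counting unit, matching of shared chains, the block and each library left out.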

Additional observations from a re-analysis of the deposited data

Results flagged for a closer look

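In 3 of 44 pairs of groups checked, the libraries of one group all moved one way and those of the other the opposite way. None of these differences was tested, and each group holds 2 libraries. The share of expanded long clonotypes minus that of middle ones was 2.14 percentage points on average in WT anti-4-1BB and -5.09 in KO anti-4-1BB, a difference of 7.23. The same value was 1.83 in KO IgG and -5.09 in KO anti-4-1BB, a difference of 6.92. In KO anti-4-1BB 4.13% and 5.53% of long clonotypes were expanded, below the long class of every other library. The long share, KO minus WT, was 1.07 points in experiment 1 and -0.683 in experiment 2, a difference of 1.76 between experiments that also differ in the type of knockout and in tamoxifen.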

How the results depend on the processing

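Class boundaries of 10 and 17 letters, in place of 11 and 16, moved most values. The short share then differed by -0.0338 points for KO minus WT and by -0.0288 for experiment 2 minus 1, and the long share by -0.184 and 0.0197. Alpha CDR3 length beside short chains differed by 0.0276 letters, the expanded share of long clonotypes by 2.64 points, and 10 segments were called in short and 15 in long clonotypes, with fewer segments tested. TRAJ18 (-0.42), TRAV11 (-1.04), TRAV13-4-DV7 (-0.56) and histidine (-0.015) changed sign in short clonotypes.

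Counted by cells, the long share for KO minus WT was -0.301 points and alpha length differed by 0.106 letters beside short and 0.0205 beside long chains. With at least 3 UMIs the expanded share of long clonotypes differed by 0.171 points. With TRB and TRA both shared, sharing differed by -0.0969 (short) and 0.00302 points (long).

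With TMM factors 7 segments were called higher and 8 lower in short clonotypes and 14 and 10 in long ones, and with DESeq2 8 and 6, and 12 and 8. Amino acid differences shifted by a median of -0.128 (short) and 0.114 (long) with TMM factors, and V differences of long clonotypes by 0.169 with DESeq2. DESeq2 called 7 amino acids in long clonotypes. TRBJ2-4 in short clonotypes had 0.044 with TMM factors and 0.000205 with DESeq2, and TRBD1 in long ones 6.97e-08 with DESeq2, whose size factor there rests on 2 segments. With 3 end letters left out serine in short (0.12) and glutamine in long clonotypes (0.088) changed sign. Within the short class TMM factors gave 1 call for anti-4-1BB (TRBV12-1, which met the filter through the libraries where it is high), and no filter gave 1 within the long class (TRAV11, -2.10, edgeR adjusted p = 0.00582).

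Without the replicate block the short share for anti-4-1BB differed by the same 0.478 points with an exact p of 0.0286. Without the library as block, 17 segments were called in short and 23 in long clonotypes, and 13 and 10 amino acids. The call of TRBV12-1 in long clonotypes was lost (-0.86, edgeR adjusted p = 0.436), as with DESeq2 (adjusted p = 0.240). With experiment as replicate block 0 segments were called in each of the 4 condition comparisons.

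With 1 library left out, the ranges were -0.256 to 0.539 points for the long share in KO minus WT (negative without WT or KO IgG of experiment 1), -0.0237 to 0.0181 letters for alpha length beside long chains, and -0.569 to 0.890 points for expanded long clonotypes. Called segments numbered 11 to 21 in short and 22 to 28 in long clonotypes. Within the short class 0 to 1 were called for KO, and within the long class 0 to 1 for anti-4-1BB. The short share for anti-4-1BB stayed between 0.300 and 0.602, and sharing between 2.18 and 2.77 (short) and -2.99 and -2.61 (long), with shared chains defined over all 8 libraries. TRAV11 in short clonotypes ranged from -0.028 (without WT IgG of experiment 1) to 0.43, and TRAJ18 within the short class, for anti-4-1BB, from -0.35 to 0.17 (above 0 without KO IgG of experiment 2, and 0.011 without KO anti-4-1BB of experiment 1). The causes of these changes were not tested. Leaving out Vβ5 segments or the invariant NKT chain, or counting each TRB once per library, was chosen after seeing the data. The precision of shares in the short class is limited by 102 to 385 clonotypes per library.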
